A study of Homo sapiens with 40 samples.

Results

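The ZNF genes of human chromosome 19 were taken as the protein-coding genes that the count tables place on chromosome 19 and whose GENCODE symbol is ZNF followed by a number and at most 1 letter. The rule used no expression value. It found 246 genes among the 60708 of the tables, of which 19942 are protein-coding. They were followed through 24 RNA-seq libraries in 8 groups of 3.

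Most of these genes encode C2H2 zinc finger proteins, in which a row of fingers reads a stretch of DNA. Many also carry a KRAB box near the start of the protein, which binds the co-repressor TRIM28. TRIM28 in turn brings the histone methyltransferase SETDB1, the heterochromatin proteins and histone deacetylases, and the family is best known for holding transposable elements silent. The genes lie in clusters that grew by tandem duplication, so neighbours are often close relatives.

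The study asked how breast epithelial cells at different stages of transformation respond to transforming growth factor β (TGFβ). MI denotes MCF-10A, an immortalized breast epithelial line, and MII denotes its HRAS-transformed derivative (MCF-10A-HRAS), both grown as spheres in ultra-low attachment plates. Groups MI Ctrl and MII Ctrl were untreated, and groups MI TGFb and MII TGFb received TGFβ1 at 2.5 ng/ml for 16 hours. MDA-MB-231, a triple-negative breast cancer line, was grown as a monolayer and supplied the other 4 groups: untreated wild-type cells (WT), cells given CRISPR/Cas9 against SNAI2, the gene of the SLUG protein (SLUG KO), cells given a control scramble siRNA (Csi) and cells given siRNAs against SMAD2, SMAD3 and SMAD4 (SMAD KD). The line and the culture form changed together between spheres and MDA-MB-231, so their effects cannot be told apart. The knockout came from expanded single cells, and the sources used here do not say whether the 3 SLUG KO libraries are 1 clone. Labels call the 3 libraries of a group biological replicates. In bulk RNA, fewer cells expressing a gene and less RNA per cell cannot be told apart.

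Library totals ran from 14124688 to 38406952 counts, and the 246 genes took between 0.303% and 0.459% of them. SMAD2 fell from a mean of 90.5 CPM (counts scaled to the library's total) in Csi to 23.9 in SMAD KD, SMAD3 from 266 to 165 and SMAD4 from 55.3 to 16.8. SNAI2 RNA did not fall with the knockout label: it averaged 28.3 CPM in WT and 61.8 CPM in the libraries labelled SLUG KO, which checks RNA only and not the protein. The paper states that the knockout clones were checked by ddPCR and immunoblotting. HRAS averaged 40.7 CPM in MI Ctrl and 220 in MII Ctrl. The basal markers KRT5 and KRT17 and the epithelial marker CDH1 were present in the spheres, and VIM, ZEB1 and AXL in MDA-MB-231. However, the mesenchymal marker CDH2 averaged only 1.18 CPM in WT and the basal marker TP63 only 0.621 CPM in MII Ctrl. Replicate 2 of WT stood apart from its group. Its Pearson correlation with replicates 1 and 3 over the log2 levels of the ZNF genes was 0.846 with each, against 0.987 between those 2 libraries, so the main counts that use WT are also given without it.

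The 246 genes lie in 16 position clusters, a new cluster starting wherever 2 neighbours are more than 1 Mb apart, and 9 clusters hold 5 or more genes. The largest, cluster 16, spans chr19:55476617-58481230 (GRCh38) with 59 genes at the end of the long arm. Cluster 15 (chr19:51571283-53580269) holds 39 genes, cluster 5 (chr19:19668796-24129968) beside the centromere holds 37, cluster 9 (chr19:36182276-37817300) holds 26, cluster 3 (chr19:11483427-12640098) holds 25 and cluster 12 (chr19:43525497-45076587) holds 24. A search of the proteins translated from the canonical GENCODE transcripts found a KRAB box in 209 genes and none in 37, and found such a box in 31 of 19434 other protein-coding genes. A gene counts as having the box only if the canonical transcript encodes it, so isoforms with a box elsewhere are missed. The KRAB genes encoded a median of 13 fingers and had a median exonic GC content of 42.8%. The 37 others encoded a median of 10 fingers and had a median GC content of 58.6%. Of the 246 genes, 142 share exon bases with another annotated gene, and 29 have more than 25% of their transcript's 50-base words in another gene, so part of their reads could belong to a relative or, since strand was not used in counting, to an antisense gene.

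Among the chromosome 19 ZNF genes, most were expressed at a modest level and a few stood far above the rest. On the scale of CPM per kilobase of exon, averaged over the 24 libraries, ZNF146 came first at 48.2, followed by ZNF581 at 15.2, ZNF460 at 13.9, ZNF121 at 13.8 and ZNF524 at 12.5. ZNF146 encodes a protein made almost only of zinc fingers. Its group means ran from 78.3 CPM in SMAD KD to 351 CPM in MI TGFb. Only ZNF460 of these 5 carries a KRAB box. The KRAB genes had a median of 1.62 CPM per kilobase and the genes without the box a median of 2.98.

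ZNF460 showed the widest gap between the MDA-MB-231 control groups. It measured 48.8, 67.6 and 35.3 CPM in the WT libraries and 34.1, 30.8 and 33.9 CPM in those labelled SLUG KO. In Csi it measured 2.88, 2.24 and 2.25 CPM, and in SMAD KD 2.84, 1.54 and 1.73 CPM. No value of the siRNA experiment came near one of the other MDA-MB-231 libraries, and every sphere library held at least 78.3 CPM. The siRNA libraries belong to another labelled sequencing batch than WT and SLUG KO, so batch, transfection and expression cannot be told apart here. ZNF460 shares 24.6% of its exon bases with another annotated gene.

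The cell lines differed in how many of the 246 genes were on. A mean of at least 1 CPM was reached by 177 genes in MI Ctrl, 174 in MI TGFb, 174 in MII Ctrl and 172 in MII TGFb, but by 213 in WT, 211 in SLUG KO, 211 in Csi and 209 in SMAD KD. As a share this was 72.0% in MI Ctrl and 86.6% in WT, where 212 genes reached 1 CPM without replicate 2. ZNF genes of other chromosomes moved from 82.8% to 85.9% and the remaining protein-coding genes of chromosome 19 from 53.5% to 54.0%. All 8 groups reached 1 CPM for 160 genes. A gene was taken as not detected in a group when each of its libraries held fewer than 3 counts, and by this rule 53 genes were not detected in MI Ctrl, 56 in MII Ctrl and 19 in WT. In no group were 9 genes detected (ZNF560, ZNF257, ZNF676, ZNF729, ZNF492, ZNF99, ZNF723, ZNF730 and ZNF677), 7 of them in cluster 5. A level under this floor was not detectable at this depth.

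**Figure D1:**
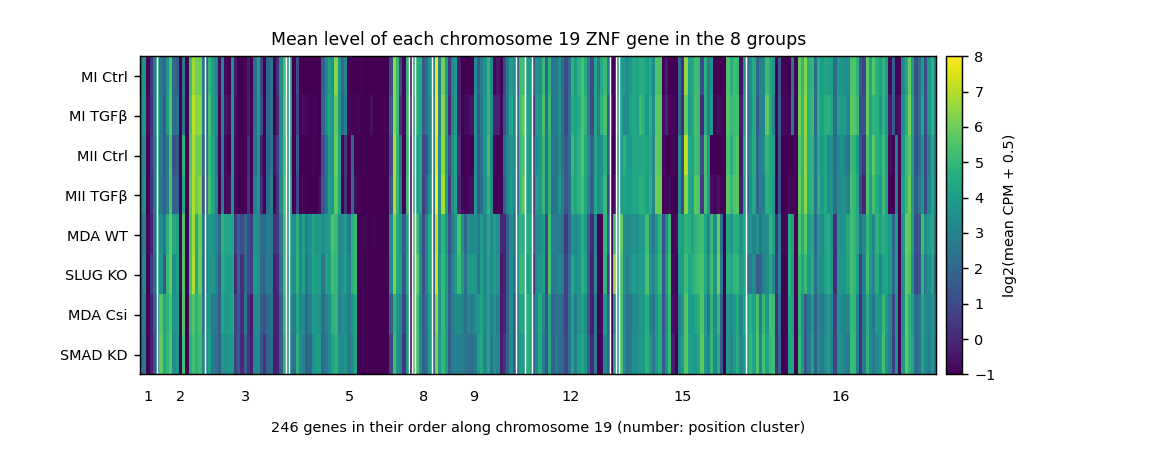
Mean level of each of the 246 genes (columns, in their order along the chromosome, white lines between position clusters) in the 8 groups (rows), as log2 of mean CPM plus 0.5. In cluster 5, 21 of 37 genes were not detected in MI Ctrl, 12 in MI TGFb, 21 in MII Ctrl, 20 in MII TGFb and 10 in each MDA-MB-231 group, while 14 or 15 reached 1 CPM in the sphere groups and 26 or 27 in MDA-MB-231.

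A set of 42 genes was not detected in at least 1 group and reached 1 CPM in another. Of these, 35 reached 1 CPM only in MDA-MB-231, 2 only in the spheres (ZNF229 and ZNF285), 4 in every line but MII (ZNF160, ZNF71, ZNF738 and ZNF256) and 1 in every line but MI (ZNF100). The 35 genes at 1 CPM only in MDA-MB-231 lay in 6 clusters: 11 in cluster 5, 9 in cluster 3, 6 each in clusters 9 and 15, 2 in cluster 16 and 1, ZNF114, in cluster 13. In cluster 5 they were ZNF14, ZNF253, ZNF93, ZNF682, ZNF90, ZNF486, ZNF737, ZNF626, ZNF429, ZNF43 and ZNF726. Cluster 3 supplied ZNF491, ZNF439, ZNF69, ZNF763, ZNF433, ZNF878, ZNF844, ZNF625 and ZNF442, and cluster 9 supplied ZNF790, ZNF345, ZNF829, ZNF568, ZNF569 and ZNF570. Cluster 15 supplied ZNF610, ZNF880, ZNF528, ZNF415, ZNF347 and ZNF665, and cluster 16 supplied ZNF470 and ZNF418. Summed over the 35 genes, WT libraries held 486, 364 and 502 CPM. Some of the 35 were detected in spheres below 1 CPM: ZNF763, ZNF880 and ZNF570 averaged 0.289, 0.277 and 0.269 CPM in MI Ctrl. ZNF763 averaged only 1.04 CPM in WT and 0.587 CPM in SLUG KO.

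Sphere libraries held traces of the same 35 genes, and the traces were uneven. Their sum was 1.44 to 1.54 CPM in MI Ctrl and 0.463 to 1.11 CPM in MII Ctrl. In MI TGFb it was 2.03, 6.22 and 2.64 CPM, and in MII TGFb 0.0676, 0.466 and 4.01 CPM. The highest, replicate 2 of MI TGFb, came to 1.38% of the WT mean. Replicate 2 of MI TGFb and replicate 3 of MII TGFb held at least 3 counts of 18 and 8 of the 35 genes. The number of genes not detected in MI TGFb, 30, was lower than the 53 of MI Ctrl, and the part of these traces in that difference was not tested.

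**Figure D2:**
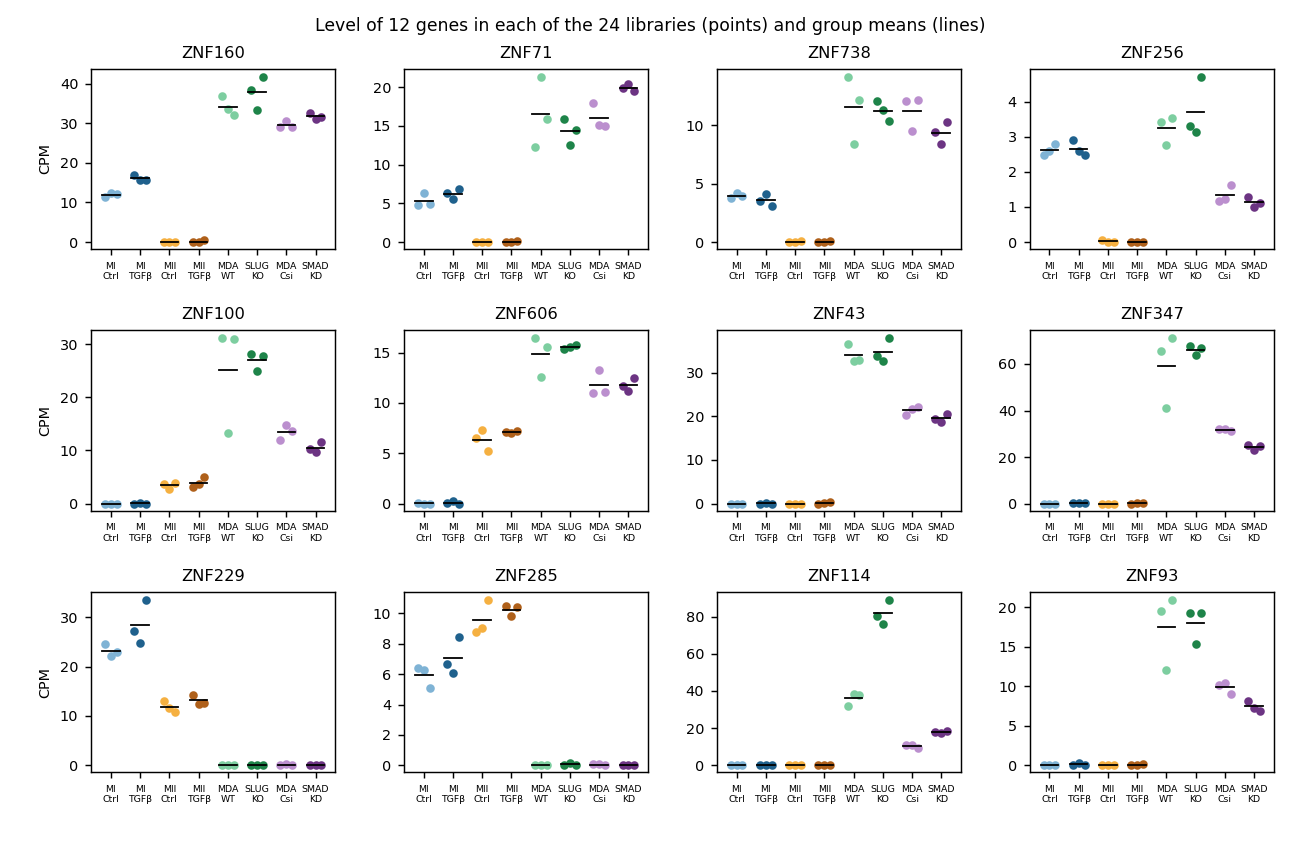
CPM of 12 of the genes that switched between lines in each of the 24 libraries (points; black lines are group means), with a separate linear axis for each gene. ZNF160, ZNF71, ZNF738 and ZNF256 were near 0 only in the MII groups, ZNF100 and ZNF606 only in the MI groups, ZNF43, ZNF347, ZNF114 and ZNF93 in all sphere groups, and ZNF229 and ZNF285 in the MDA-MB-231 groups.

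The untreated MI- and MII-spheres, which differ by the HRAS transformation, shared most of the ZNF genes that were on, while a few were near 0 in MI or in MII only. Of the chromosome 19 ZNF genes, 185 had enough counts to be tested. In MII Ctrl 49 were higher (background over all 17862 genes tested, 31.7%) and 45 lower (background 32.5%) than in MI Ctrl at a Benjamini-Hochberg adjusted p below 0.05 in the quasi-likelihood test of edgeR, which are 26.5% and 24.3% of those tested. More than 2-fold, 11 were higher (background 12.5%) and 9 lower (background 7.62%). All 20 of these carried a KRAB box, as did 209 of the 246 genes. ZNF100 and ZNF606 entered this test through MII Ctrl and could only come out higher. ZNF160, ZNF71, ZNF738 and ZNF256 entered it through MI Ctrl and could only come out lower. The median log2 fold-change over the 185 genes was 0.02, as it was over all genes. HRAS transformation cannot be told apart from any other difference between the lines. The leukocyte marker CD14 averaged 192 CPM in MII Ctrl and was higher there than in MI Ctrl (log2 fold-change 0.94), while PTPRC and CD3E averaged at most 0.395 CPM in any group. Of 3 endothelial markers PECAM1 was higher in MII Ctrl (3.43) and VWF (−2.67) and CDH5 (−1.06) were lower. The basal list, which includes CDH1, summed to 2403 to 2458 CPM in MI Ctrl and 1361 to 1409 CPM in MII Ctrl. Any part of these markers in the ZNF differences was not tested.

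Genes absent from MII stood out by their size. ZNF160, a KRAB gene with 20 fingers in cluster 15, measured 11.3, 12.3 and 12.2 CPM in MI Ctrl and 0, 0.0334 and 0 CPM in MII Ctrl. This was 786 counts against 1, a ratio of 751 with a 95% counting interval of 134 to 29699. ZNF71 in cluster 16 measured 4.74, 6.31 and 4.93 CPM in MI Ctrl against 0, 0.0334 and 0.0555 in MII Ctrl (349 counts against 2, a ratio of 167 with an interval of 45.8 to 1382). No value of either gene in MII came near the MI libraries, and all MDA-MB-231 libraries held both genes above the MI level. ZNF738 in cluster 5 (260 counts against 1, ratio 248, interval 44.2 to 9849) and ZNF256 in cluster 16 (172 counts against 1, ratio 164, interval 29.1 to 6528) were also near 0 in MII, although 28.5% of the ZNF738 transcript occurs in another gene. ZNF256 averaged 3.24 CPM in WT but 1.35 CPM in Csi and 1.13 CPM in SMAD KD, below the 2.62 CPM of MI Ctrl. ZNF493, the neighbour of ZNF738, fell from a mean of 8.22 CPM in MI Ctrl to 0.784 CPM in MII Ctrl (log2 fold-change −3.38, SE 0.197). It was the only one of these 5 genes with counts in every MII library.

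The genes that went the other way were as clear. ZNF606, in cluster 16, measured 0.116, 0 and 0 CPM in MI Ctrl and 6.55, 7.29 and 5.22 CPM in MII Ctrl. It held 3 counts against 411, a ratio of 143 with a 95% counting interval of 48.7 to 698. ZNF100 in cluster 5 had no count in MI Ctrl and 3.71, 2.78 and 3.94 CPM in MII Ctrl (210 counts against 0). The 95% counting interval of this ratio starts at 59.1 and has no upper end. Both genes were thus near 0 in MI and present in MII, and both were higher again in MDA-MB-231. ZNF266 in cluster 2 measured 5.71, 4.96 and 5.76 CPM in MI Ctrl and 25.5, 29.3 and 25.4 CPM in MII Ctrl (log2 fold-change 2.31, SE 0.0953, adjusted p = 1.93e-28). ZNF808 (log2 fold-change 1.35, SE 0.127) and ZNF816 (1.06, SE 0.105), 2 genes of cluster 15 that partly overlap other annotated genes, were also higher in every MII Ctrl library than in any MI Ctrl library.

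The promoters of these genes are shown because these genes were on in one sphere line and near 0 in the other. ZNF738 has no entry. Each is the RefSeq reference (GRCh38.p14) from 250 bases before to 50 bases after the annotated start, read 5′ to 3′ on the gene's strand, with CG dinucleotides, the sites of DNA methylation, in capitals. They are reference sequences and not reads from the lines. ZNF160 (chr19:53103373-53103672, minus strand), ZNF71 (chr19:56595052-56595351, plus strand) and ZNF256 (chr19:57947657-57947956, minus strand) were off in MII.
ZNF160: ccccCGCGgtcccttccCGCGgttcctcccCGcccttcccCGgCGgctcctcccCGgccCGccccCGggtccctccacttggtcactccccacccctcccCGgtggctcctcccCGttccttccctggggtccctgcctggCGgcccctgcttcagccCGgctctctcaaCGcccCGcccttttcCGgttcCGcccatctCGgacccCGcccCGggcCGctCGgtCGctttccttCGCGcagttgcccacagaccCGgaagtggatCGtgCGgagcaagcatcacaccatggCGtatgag
ZNF71: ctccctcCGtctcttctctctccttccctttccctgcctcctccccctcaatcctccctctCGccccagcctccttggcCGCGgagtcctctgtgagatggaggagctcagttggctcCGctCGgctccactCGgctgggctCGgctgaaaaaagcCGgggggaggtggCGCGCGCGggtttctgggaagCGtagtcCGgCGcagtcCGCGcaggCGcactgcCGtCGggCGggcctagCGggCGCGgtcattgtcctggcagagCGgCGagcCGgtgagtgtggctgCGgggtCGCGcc
ZNF256: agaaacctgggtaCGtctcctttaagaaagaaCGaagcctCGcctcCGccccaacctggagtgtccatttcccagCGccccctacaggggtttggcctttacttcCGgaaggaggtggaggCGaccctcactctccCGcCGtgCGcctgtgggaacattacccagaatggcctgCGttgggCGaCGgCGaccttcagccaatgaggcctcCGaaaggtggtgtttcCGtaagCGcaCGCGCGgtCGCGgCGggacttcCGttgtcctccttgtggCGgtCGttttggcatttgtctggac
ZNF606 (chr19:58002771-58003070, minus strand) and ZNF100 (chr19:21767530-21767829, minus strand) were off in MI.
ZNF606: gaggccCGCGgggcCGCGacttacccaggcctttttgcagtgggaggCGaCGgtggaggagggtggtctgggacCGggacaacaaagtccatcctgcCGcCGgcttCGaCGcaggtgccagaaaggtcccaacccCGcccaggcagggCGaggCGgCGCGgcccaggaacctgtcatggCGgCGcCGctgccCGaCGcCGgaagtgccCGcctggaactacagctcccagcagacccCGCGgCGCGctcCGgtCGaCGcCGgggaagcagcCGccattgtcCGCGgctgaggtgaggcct
ZNF100: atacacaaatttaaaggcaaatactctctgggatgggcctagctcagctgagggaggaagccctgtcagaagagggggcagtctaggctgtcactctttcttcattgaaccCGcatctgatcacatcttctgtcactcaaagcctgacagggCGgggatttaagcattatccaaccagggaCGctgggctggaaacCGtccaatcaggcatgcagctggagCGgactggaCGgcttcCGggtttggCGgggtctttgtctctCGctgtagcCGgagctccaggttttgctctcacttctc
The ZNF160, ZNF71, ZNF256 and ZNF606 windows held 30, 31, 26 and 34 CG dinucleotides, and the ZNF100 window held 10.

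RefSeq gave such a window for 216 of the 246 genes. Their median was 20 CG dinucleotides, against 14 over all 27305 promoters of the table. Genes at 1 CPM or more in every group had a median of 21 (144 genes) and those at 1 CPM only in MDA-MB-231 a median of 14 (30 genes). The sets also differ in position, with 11 of the 35 genes on only in MDA-MB-231 in cluster 5. The part of position in this difference was not tested. SLUG is a zinc finger repressor that binds the E-box, and the letters CAGGTG, read on both strands (CACCTG on the other), occurred in 32 windows of the family (14.8%), against 20.6% of all promoters. Of the 5 windows printed here only that of ZNF606 held them. These letters describe the windows and are no evidence of binding.

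MDA-MB-231 WT was set against MI Ctrl to compare the cancer line with the immortalized one. Of 223 chromosome 19 ZNF genes tested, 83 were higher (background 28.1%) and 47 lower (background 25.9%) in WT, which are 37.2% and 21.1%. More than 2-fold, 72 were higher (background 23.4%) and 25 lower (background 21.1%), and 75 and 26 without WT replicate 2. Without WT replicate 2 the counts were 99 higher and 90 lower of 224, against 36.6% and 38.3% of all genes, so the split between higher and lower calls depends on this library. Requiring 10 counts in every library, which removes the genes that are off in a group, left 39 higher and 44 lower. The shares over all genes under this filter are not given here, so this split cannot be read as particular to the ZNF genes. The median log2 fold-change over the tested genes was 0.15, against 0.06 over all genes.

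The basal list, which includes CDH1, summed to 2403 to 2458 CPM in MI Ctrl and 198 to 664 CPM in WT. The mesenchymal markers summed to 80.1 to 83.0 CPM and 2783 to 3597 CPM in the same groups. By position, the genes called higher in WT include the 35 that were on only in MDA-MB-231, which entered the test through WT and could only come out higher. In cluster 5, 20 of 27 tested genes were higher and 2 lower, and 11 of the 20 were of this kind. In cluster 3, 17 of 25 were higher and 3 lower, and 9 of the 17 were of this kind. These counts therefore restate which genes were on. In cluster 12, where all 24 genes reached 1 CPM in MI Ctrl, 1 was higher and 11 were lower, against 28.1% and 25.9% of all genes. Without WT replicate 2 it was 2 and 16, against 36.6% and 38.3%. Of these lower genes, ZNF229 and ZNF285 were on only in the spheres, entered the test through MI Ctrl and could only come out lower. In cluster 5 the number of genes at 1 CPM rose from 15 to 27 of 37. Among KRAB genes, which include 33 of the 35, 77 of 191 were higher and 43 lower, and 90 and 72 of 192 without replicate 2. Of the genes without the box 6 of 32 were higher and 4 lower, which became 9 and 18 without replicate 2.

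The genes that were on only in MDA-MB-231 gave the greatest ratios. ZNF43, a cluster 5 gene with 19 fingers, had 2579 counts in WT (36.6, 32.7 and 32.8 CPM) and none in MI Ctrl. The 95% counting interval of this ratio starts at 609. ZNF347 in cluster 15 measured 65.6, 41.2 and 70.9 CPM in WT and held 1 count in MI Ctrl (4504 counts against 1, a ratio of 3928 with a counting interval of 705 to 155197). ZNF114 in cluster 13 measured 31.7, 38.2 and 37.9 CPM in WT and held 1 count in MI Ctrl (2709 against 1, ratio 2363, interval 424 to 93359). All 3 were at or near 0 in the MII libraries as well, so these were differences between MDA-MB-231 and both sphere lines. ZNF69 in cluster 3 (1432 counts against 1, ratio 1249, interval 224 to 49366) was alike, and ZNF850 in cluster 9, with 29 fingers, measured 45.1, 38.7 and 48.4 CPM in WT against 0.463, 0.193 and 0.363 in MI Ctrl (log2 fold-change 6.97, SE 0.327, adjusted p = 7.34e-06, and 7.01 without replicate 2).

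In the other direction, ZNF229 and its neighbour ZNF285 were off in MDA-MB-231. ZNF229 measured 24.6, 22.1 and 23.0 CPM in MI Ctrl and had no count in WT (1539 counts against 0, a ratio with a 95% counting interval starting at 478). No count appeared in any SLUG KO library either. ZNF285 measured 6.40, 6.26 and 5.09 CPM in MI Ctrl and held 1 count in WT (394 against 1, a ratio of 452 with an interval of 80.6 to 17887). Both genes lie in cluster 12 and were present in every MII library. ZNF552 (log2 fold-change −2.45, SE 0.209), ZNF83 (−1.69, SE 0.174) and ZNF773 (−2.61, SE 0.292) were lower in WT but present in every library, and measured −2.61, −1.61 and −2.87 without replicate 2. The promoters of ZNF347 (chr19:53159004-53159303, minus strand), on only in MDA-MB-231, and ZNF229 (chr19:44448423-44448722, minus strand), on only in the spheres, held 27 and 23 CG dinucleotides and neither held CAGGTG.
ZNF347: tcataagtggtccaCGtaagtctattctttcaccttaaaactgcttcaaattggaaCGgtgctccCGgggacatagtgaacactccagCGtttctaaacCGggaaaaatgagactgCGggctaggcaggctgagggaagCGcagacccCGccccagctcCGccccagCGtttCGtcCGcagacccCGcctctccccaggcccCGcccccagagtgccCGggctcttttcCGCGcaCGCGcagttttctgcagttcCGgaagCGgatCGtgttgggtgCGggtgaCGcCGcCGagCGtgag
ZNF229: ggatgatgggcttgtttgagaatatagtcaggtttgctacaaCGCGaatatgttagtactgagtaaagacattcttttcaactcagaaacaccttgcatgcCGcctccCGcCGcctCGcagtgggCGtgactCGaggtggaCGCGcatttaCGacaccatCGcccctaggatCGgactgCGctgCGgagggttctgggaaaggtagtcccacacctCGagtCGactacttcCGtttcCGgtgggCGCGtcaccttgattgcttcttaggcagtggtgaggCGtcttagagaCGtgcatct

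WT replicate 2 departed from replicates 1 and 3 along the GC content of the genes. Over the 213 genes at 1 CPM or more in WT, the log2 level in replicate 2 minus the mean of the other 2 had a median of −0.76 for the 32 genes with less than 40% GC and −0.50 for the 115 genes with 40 to 45%. It was 0.02 for the 35 genes with 45 to 50%, 0.62 for the 15 genes with 50 to 60% and 1.58 for the 16 genes above 60%. All genes of the tables moved alike, from −0.92 in the lowest class to 1.09 in the highest. The KRAB genes had a median of −0.47 in this library (181 genes) and the genes without the box a median of 0.90 (32 genes). ZNF865 was 4.25 higher and ZNF254 was 1.56 lower on the log2 scale. Mitochondrial genes took 2.40% of the counts in replicate 2 and 0.812% and 0.656% in the others, and what set this library apart was not tested.

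**Figure D3:**
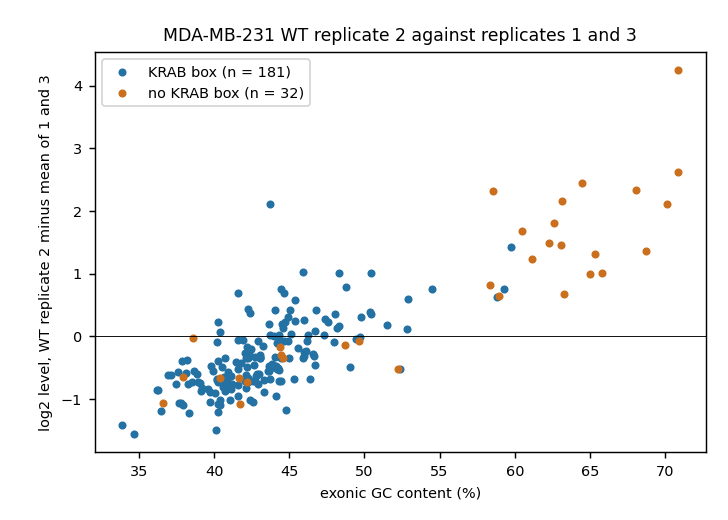
Log2 level of 213 genes in WT replicate 2 minus the mean of replicates 1 and 3, against exonic GC content in percent, with KRAB genes in blue and the other genes in orange. The difference runs from a median of −0.76 below 40% GC to 1.58 above 60%.

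TGFβ changed many of the chromosome 19 ZNF genes by a little and few by much. In MI-spheres 34 of 181 tested genes rose (background 28.7%) and 25 fell (background 27.4%) at the same threshold of the edgeR test, which are 18.8% and 13.8%. None rose more than 2-fold (background 3.64%) and 3 fell more than 2-fold (background 9.92%). In MII-spheres 33 of 180 rose (background 29.9%) and 27 fell (background 27.6%), none more than 2-fold upward (background 3.12%) and 1 more than 2-fold downward (background 7.50%). Unadjusted p was below 0.05 for 71 genes in each line, and DESeq2 also gave 0 genes more than 2-fold higher in either line. The median log2 fold-change was 0.03 in MI and 0.01 in MII, and the split of the calls depended on the fit. A correction for gene length gave 25 higher and 31 lower in MI and 23 and 33 in MII, and one for GC content gave 28 and 31 in MI and 25 and 33 in MII. DESeq2 gave 25 and 10 in MI and 24 and 11 in MII, and requiring 10 counts in every library gave 25 and 31 in MII. In the main fit, 44 of 220 ZNF genes of other chromosomes rose and 40 fell in MI, and 42 and 54 of 218 in MII. More than 2-fold, 5 of them rose and 4 fell in MI, and 2 and 1 in MII. A small response was thus not particular to chromosome 19. Of protein-coding genes alone, 5.50% fell more than 2-fold in MI and 2.86% in MII.

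**Figure D4:**
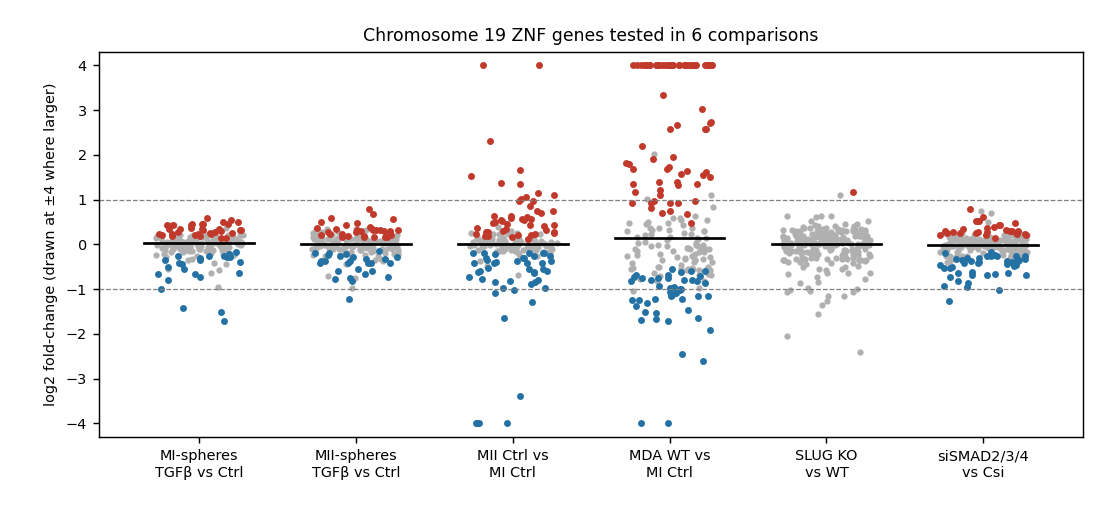
Log2 fold-change of each tested chromosome 19 ZNF gene in 6 comparisons (points; red higher and blue lower past the test, grey not past it; black lines are medians; dashed lines mark 2-fold; values beyond 4 are drawn at 4). The responses to TGFβ and to the SMAD siRNAs stayed mostly within 2-fold, with 178 of 181, 179 of 180 and 219 of 221 genes inside, whereas the differences between lines reached well past it.

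The decreases past 2-fold with TGFβ were in 3 genes. ZNF296, which has no KRAB box and lies in cluster 12, measured 7.02, 6.16 and 5.50 CPM in MI Ctrl and 2.36, 2.82 and 2.21 CPM in MI TGFb (log2 fold-change −1.42, SE 0.167, adjusted p = 3.74e-07). In MII it measured 4.70, 2.78 and 3.44 CPM in Ctrl and 2.23, 0.733 and 1.70 CPM with TGFβ (−1.22, SE 0.262, adjusted p = 8.45e-05). The treated and untreated libraries did not overlap in either line. ZNF575, also in cluster 12 and without the box, measured 2.04, 2.31 and 2.18 CPM in MI Ctrl and 0.603, 1.03 and 0.468 CPM in MI TGFb (−1.70, SE 0.307). ZNF320, a KRAB gene of cluster 15, fell from 2.08, 1.40 and 1.14 CPM to 0.494, 0.761 and 0.468 CPM (−1.51, SE 0.351). All 3 are low in the spheres, and ZNF320 lay between 33.8 and 50.9 CPM in the MDA-MB-231 libraries.

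Among well-expressed genes the response to TGFβ was smaller and precisely measured. ZNF83, which has 14 fingers and no KRAB box, fell from 91.5, 89.4 and 94.1 CPM to 57.5, 55.5 and 63.4 CPM in MI, and from 146, 139 and 136 CPM to 88.1, 83.2 and 78.8 CPM in MII. Its log2 fold-changes were −0.72 and −0.78. ZNF577 (−0.66 and −0.60), ZNF552 (−0.79 and −0.41) and ZNF431 (−0.65 and −0.24) fell in both lines as well. ZNF146 rose from 236, 228 and 234 CPM to 345, 316 and 393 CPM in MI and from 233, 213 and 223 CPM to 283, 299 and 265 CPM in MII. ZNF780A (0.45 and 0.31) and ZNF562 (0.42 and 0.32) rose in both lines. These genes were chosen for naming after their values were seen.

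Of 176 chromosome 19 ZNF genes tested in both lines, 14 rose in both, which is 42.4% of the 33 that rose in MI and 42.4% of the 33 that rose in MII. In both lines 13 fell, which is 52.0% of the 25 in MI and 48.1% of the 27 in MII. Over all genes the shares were 68.2% and 65.8% for the increases and 61.9% and 62.4% for the decreases. In opposite directions past the test went 4 of 176, against 468 of 15462 over all genes (ZNF581, ZNF792, ZNF681 and ZNF530).

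The difference between the lines' responses to TGFβ was itself tested. Of 185 chromosome 19 ZNF genes, 9 had a higher response in MII (background 12.6%) and 6 a lower one (background 9.75%). ZNF581, a short protein with 4 fingers, measured 36.9, 37.3 and 35.6 CPM in MI Ctrl and 53.5, 56.0 and 50.4 CPM in MI TGFb. In MII it went from 31.0, 32.2 and 27.6 CPM to 25.2, 26.6 and 25.8 CPM, so it rose in one line and fell in the other (difference −0.72, SE 0.101, adjusted p = 5.33e-07). It shares 24.9% of its exon bases with CCDC106 and ZNF580. ZNF792 in cluster 8 did the reverse, from a mean of 11.7 to 9.30 CPM in MI and from 8.05 to 11.3 CPM in MII (difference 0.90, SE 0.166). ZNF681 in cluster 5 went from a mean of 1.34 to 0.716 CPM in MI and from 4.15 to 6.38 CPM in MII (difference 1.58, SE 0.327). ZNF121, one of the most abundant genes of the family, rose in MI (log2 fold-change 0.31, SE 0.0517) and measured −0.01 (SE 0.0451) in MII, which did not pass the test (difference −0.31, SE 0.0704). ZNF431 fell in both lines, by 0.65 in MI and by 0.24 in MII on the log2 scale (difference 0.42, SE 0.0835). The call of ZNF546 (difference −0.81, SE 0.257, adjusted p = 0.0178) was lost with DESeq2 (adjusted p = 0.0567) and when MII Ctrl replicate 2, MII Ctrl replicate 3 or MII TGFb replicate 3 was left out (−0.70, −0.75 and −0.67).

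**Figure D5:**
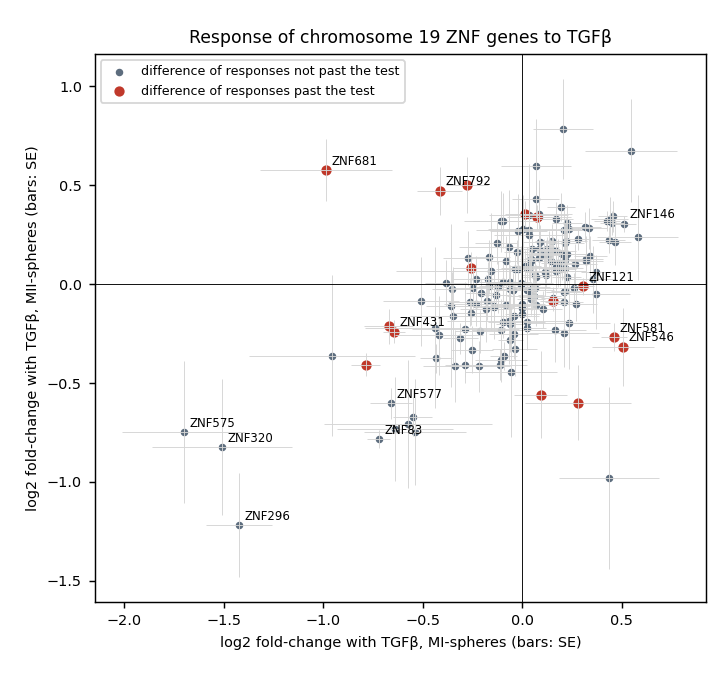
Log2 fold-change with TGFβ in MII-spheres against that in MI-spheres for the chromosome 19 ZNF genes tested in both lines (points; bars are standard errors). The genes whose responses differed past the test are red, and ZNF681 and ZNF792 lie in the upper left while ZNF581 lies in the lower right.

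In the libraries labelled SLUG KO, 1 of 221 chromosome 19 ZNF genes was higher than in WT (background 1.45%, and 1.25% for more than 2-fold) and none lower (background 1.89%, and 1.80% for more than 2-fold) by edgeR's quasi-likelihood test. Unadjusted p was below 0.05 for 12 genes, and DESeq2 called 1 higher and 2 lower. The gene was ZNF114, which measured 31.7, 38.2 and 37.9 CPM in WT and 80.5, 75.8 and 88.9 CPM in SLUG KO (log2 fold-change 1.16, SE 0.166, adjusted p = 0.0132). The groups did not overlap. Its adjusted p rose above 0.05 when any SLUG KO library or WT replicate 1 was left out, to between 0.0719 and 0.113, with log2 fold-changes of 1.11 to 1.23. Without WT replicate 2, 13 of 222 genes were higher and 17 lower, against 16.8% and 14.4% of all genes, so the number of calls rests on that library.

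Knockdown of SMAD2, SMAD3 and SMAD4 changed 74 of the family's genes, mostly by little. Of 221 tested, 29 rose (background 16.3%) and 45 fell (background 19.7%), which are 13.1% and 20.4%. None rose more than 2-fold (background 0.978%) and 2 fell more than 2-fold (background 0.927%). DESeq2 also gave 0 rising more than 2-fold, and unadjusted p was below 0.05 for 90 genes. The 2 were ZNF844, at 5.76, 6.45 and 4.85 CPM in Csi and 3.04, 2.59 and 2.75 CPM in SMAD KD (log2 fold-change −1.03, SE 0.146), and ZNF442, at 1.84 CPM in each Csi library and 0.718, 0.612 and 0.990 CPM in SMAD KD (−1.26, SE 0.259). Both are KRAB genes of cluster 3 that were off in the spheres, and ZNF844 shares 45.3% of its exon bases with other genes. In cluster 3, 8 of 25 genes fell and 1 rose, and in cluster 5, 11 of 27 fell and 6 rose, against 19.7% and 16.3% of all genes. The other clusters are not given here, so these counts cannot be read as particular to clusters 3 and 5. Headers place SMAD KD replicates 1 and 2 on another flow cell than replicate 3 and the Csi libraries, and with flow cell as a term the counts were 18 higher and 28 lower and the ZNF442 call was lost (−0.89, adjusted p = 0.0786).

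ZNF114 rose with the SMAD siRNAs too, from 10.8, 11.0 and 9.24 CPM in Csi to 17.7, 17.4 and 18.4 CPM in SMAD KD (log2 fold-change 0.78, SE 0.0852, adjusted p = 7.86e-09). It was thus higher in both altered MDA-MB-231 groups than in the control beside it. Of the 14 genes that rose with TGFβ in both sphere lines, 5 fell with the SMAD siRNAs (ZNF146, ZNF780A, ZNF562, ZNF180 and ZNF724) and 1, ZNF627, rose. ZNF780A fell from a mean of 21.8 to 13.6 CPM (−0.69, SE 0.0779). Of the 13 that fell with TGFβ in both lines, none passed the edgeR test with the siRNAs, while 3 had an unadjusted p below 0.05. Over all genes, 1161 of 3086 that rose in both lines fell with the siRNAs and 353 rose, and of 2234 that fell in both lines 655 rose and 191 fell. The MDA-MB-231 cells received no TGFβ1 by their labels, so these are different conditions in another line.

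Chromosome 19 ZNF genes known to bind retroelements were compared as a list of 8. ZNF91, which binds SVA elements, measured 91.4, 92.1 and 93.6 CPM in MI Ctrl and 125, 122 and 132 CPM in MII Ctrl (log2 fold-change 0.46, SE 0.0429). ZNF649, ZNF808, ZNF611 and ZNF587 were also higher in MII Ctrl, so that 5 of 7 tested were higher and none lower, against 31.7% and 32.5% of all genes, with a median of 0.35 against 0.02. The call of ZNF611 (0.23) was lost with DESeq2, without a count filter and without MI Ctrl replicate 1 or 2 (adjusted p 0.0548 to 0.112). ZNF93, which binds LINE-1 elements, was not among the 7. It had no count in MI Ctrl or MII Ctrl and measured 19.6, 12.1 and 20.9 CPM in WT. It fell with the SMAD siRNAs (−0.41, SE 0.101), while ZNF91 rose (0.43, SE 0.0641), as did ZNF587 (0.27). ZNF808 and ZNF611 also passed, but not with DESeq2 (adjusted p = 0.0519 and 0.0785) or without Csi replicate 3 or SMAD KD replicate 3, nor ZNF611 without SMAD KD replicate 2, without a count filter or with flow cell as a term. All genes rose in 16.3% and fell in 19.7%. With TGFβ 2 of 7 fell in MI-spheres (27.4% of all genes), ZNF91 (−0.17) and ZNF611 (−0.26), and neither passed with DESeq2 (adjusted p = 0.113 and 0.178) or without MI Ctrl replicate 3. ZNF91 was also lost without MI TGFb replicate 1 and ZNF611 without MI TGFb replicate 2. In MII-spheres 1, ZNF765, rose (0.16, 29.9% of all genes), and its call was lost with GC correction, with 10 counts required in every library and without MII TGFb replicate 2.

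Genes of the family known as silenced by promoter methylation in carcinomas formed a list of 10. ZNF177, ZNF471 and ZNF677 were too low to be tested in any comparison. ZNF382 measured 0.617, 0.963 and 0.779 CPM in MI Ctrl, 1.85, 1.34 and 1.89 CPM in MII Ctrl, and 1.61, 1.95 and 2.61 CPM in WT. It was higher in MII Ctrl (log2 fold-change 1.09, SE 0.312), as were ZNF577 (0.98) and ZNF331 (0.85), which makes 3 of 6 higher and none lower, against 31.7% and 32.5% of all genes. In WT 5 of 7 tested were higher than in MI Ctrl (28.1% of all genes): ZNF382 (1.38), ZNF331 (0.92), ZNF671 (2.66), ZNF132 (2.74) and ZNF582, which reached only 0.704 to 0.788 CPM. ZNF582 was too low to be tested in the sphere comparisons, so it entered this test through WT and could only come out higher. None of the 7 was lower by edgeR's test, and 5 were higher and 1 lower without WT replicate 2. The ZNF382 call was lost without MI Ctrl replicate 1 (adjusted p = 0.0538). Methylation was not measured in these libraries. ZNF224, a partner of WT1, and ZNF350, a partner of BRCA1, were both lower in WT than in MI Ctrl (−1.16, SE 0.271, and −0.82, SE 0.238), and measured −0.96 and −0.64 without WT replicate 2. The ZNF350 call was lost when any MI Ctrl library was left out (adjusted p 0.0581 to 0.0835).

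The co-repressors that KRAB proteins work through were followed as 41 genes. With TGFβ 22 rose and 5 fell in MI-spheres (28.7% and 27.4% of all genes), and 24 rose and 9 fell in MII-spheres (29.9% and 27.6%). TRIM28 itself averaged 327 CPM in MI Ctrl and 403 CPM in MI TGFb (log2 fold-change 0.22). It measured 255, 263 and 244 CPM in MII Ctrl and 311, 307 and 310 CPM in MII TGFb (0.25). SETDB1 averaged 45.5 and 46.5 CPM in MI Ctrl and MI TGFb and did not pass the test in either line. In MII Ctrl 12 of the 41 were higher and 22 lower than in MI Ctrl (31.7% and 32.5% of all genes), TRIM28 among the lower (−0.35). In WT 18 were higher and 3 lower than in MI Ctrl (28.1% and 25.9% of all genes), led by the maintenance methylation genes UHRF1 (3.90) and DNMT1 (3.49), and without WT replicate 2 it was 24 and 9 (36.6% and 38.3%). With the SMAD siRNAs 4 rose and 13 fell (16.3% and 19.7% of all genes), UHRF1 (−0.90) and DNMT1 (−0.57) among them. In the libraries labelled SLUG KO none passed edgeR's test, with 10 at an unadjusted p below 0.05.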

How the data were processed

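The 24 RNA-seq libraries came from ribosome-depleted, strand-specific total RNA. Per the labels the authors used Trimmomatic for trimming, STAR for alignment on GRCh38 and featureCounts (Subread 2.0.0) with GENCODE v38, and the deposited values are raw counts, made without strand and with a minimum mapping quality of 30 per the file headers. Totals per library ran from 14124688 to 38406952 counts, which sets the precision at low levels, and a group was taken to lack a gene when each of its 3 libraries held fewer than 3 counts. Counting intervals cover counting error only, at a 95% confidence level (exact).

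Symbols came from GENCODE v44, which held 99.6% of the gene identifiers. Fits used the 6 libraries of a comparison (12 for the difference of responses) and all genes kept by filterByExpr, with TMM scaling and the quasi-likelihood test of edgeR 4.0.16 (R 4.3.3, limma 3.58.1) and Benjamini-Hochberg adjustment over all genes tested. CPM values used TMM factors over the 24 libraries, and levels between genes are CPM per kilobase of exon. Each fit used TMM factors of its own libraries, so a fold-change can differ from the ratio of the printed CPM, as for TRIM28 in MI-spheres. A KRAB box was called where at least 6 of 8 conserved places matched within the first 300 residues, and copies were counted with 50-base words. Alternatives were DESeq2 1.42.0, its size factors, other count filters, corrections for gene length and GC content, a replicate block, flow cell, genes without exon overlap and leaving out each library. The scripts were tested on simulated counts, and figures and tables used Python 3.11.15, pandas 2.3.3, numpy 2.4.6, scipy 1.17.1 and matplotlib 3.10.9. The 16 ATAC-seq samples were not analysed here.

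Members and gene lists were chosen with earlier results of these data known. Named genes were, per direction, the 5 of lowest adjusted p among those past 2-fold whose groups did not overlap (3 in each direction for the difference of responses), the 5 highest per kilobase, the genes off in one group and at 1 CPM in another, and the hand-written lists.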

Additional observations from a re-analysis of the deposited data

Results flagged for a closer look

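For 15 chromosome 19 ZNF genes the TGFβ response of MII-spheres differed from that of MI-spheres past edgeR's quasi-likelihood test of the difference with Benjamini-Hochberg adjustment, and each value here is the log2 response in MII minus that in MI. The response was higher in MII for ZNF681 (1.58), ZNF792 (0.90), ZNF530 (0.79), ZNF444 (0.47), ZNF431 (0.42), ZNF552 (0.39), ZNF468 (0.35), ZNF611 (0.35) and ZNF28 (0.27). It was lower in MII for ZNF540 (−0.87), ZNF546 (−0.81), ZNF581 (−0.72), ZNF846 (−0.64), ZNF121 (−0.31) and ZNF460 (−0.23). ZNF530 averaged 9.61 and 8.39 CPM in MI Ctrl and MI TGFb and 5.13 and 7.50 CPM in MII Ctrl and MII TGFb. ZNF468 and ZNF28 rose in MII-spheres (0.36 and 0.34) and had log2 fold-changes of 0.01 and 0.07 in MI-spheres that did not pass. The adjusted p lay just under 0.05 for ZNF28 (0.0403), ZNF540 (0.0458), ZNF460 (0.0484) and ZNF846 (0.0489). The ZNF611 call was lost with DESeq2 (adjusted p = 0.0673), without a count filter (0.106) and without MI Ctrl replicate 1 or 3, MI TGFb replicate 2 or 3, MII Ctrl replicate 2 or any MII TGFb replicate (up to 0.172). For ZNF546 it was lost with DESeq2 and without MII Ctrl replicate 2 or 3 or MII TGFb replicate 3.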

How the results depend on the processing

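No result changed direction past the test under any alternative run, and 208 of 248 counts under alternatives stayed within 1.5 times the value reported, while 97 of 2225 fold-changes of named genes changed sign without passing in either fit. DESeq2 gave 10 lower with TGFβ in MI, 11 in MII, 2 in the libraries labelled SLUG KO and 2 for the difference of responses. Requiring 10 counts in every library gave 39 higher in WT against MI Ctrl and 10 lower for the difference of responses. Without a count filter 1 was lower in SLUG KO, and with GC correction 3 were higher and 2 lower. Among genes without exon overlap 15 of 75 tested rose and 10 fell with TGFβ in MI, and 14 and 9 of 73 in MII. In MII Ctrl 18 of 76 were higher and 23 lower, and in WT 39 and 16 of 93. In SLUG KO 0 of 93 were higher, with the SMAD siRNAs 8 of 93 rose and 25 fell, and the difference of responses gave 5 and 3 of 76. Fewer genes were tested here than in the full set, so lower counts alone are no loss of calls. Shares over all genes without exon overlap are not given here. With flow cell as a term 18 and 28 passed with the SMAD siRNAs.

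Leaving out 1 library at a time gave 28 to 90 lower in WT against MI Ctrl, with 29, 28 and 31 without MI Ctrl replicates 1, 2 and 3 and 90 without WT replicate 2. In SLUG KO it gave 0 to 13 higher and 0 to 17 lower, both highest without WT replicate 2. For the difference of responses it gave 5 to 10 higher and 4 to 14 lower, with 5 higher without MI Ctrl replicate 1 or MII TGFb replicate 3 and 14 lower without MI TGFb replicate 2. Same-numbered libraries did not deviate together (correlations −0.218 to 0.0913), so the numbers were not taken as pairs. A replicate block left 0 higher in SLUG KO, also with length correction, where it gave 21 higher with TGFβ in MII. Fewer genes or libraries were tested where genes or libraries were left out, and otherwise the cause was not tested. Depth limits genes under 3 counts a library.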
